A study of Mus musculus with 8 samples.

Results

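The nuclear-encoded subunits of the mitochondrial respiratory chain are the gene products that the nucleus supplies to complexes I to V of oxidative phosphorylation. They were taken by symbol from count tables of mouse liver. A gene was a member when its symbol was that of a subunit in the Nduf (a, b, c, s or v), Sdh, Uqcr, Cox4 to Cox8 or Atp5 series, or was Cyc1 or Cycs, and held no pseudogene mark. Of 24062 gene entries, 86 were members. They comprised 35 genes of complex I, 4 of complex II, 9 of complex III, 20 of complex IV, 15 of complex V, and Cycs, which encodes cytochrome c. Atp5s and Atp5sl carry the Atp5 symbol without being subunits of the enzyme and are given apart. The rule used symbols only, though the members were chosen with earlier results of these data known.

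Electrons from NADH enter at complex I and those from succinate at complex II. They pass through ubiquinone to complex III and through cytochrome c to complex IV, which reduces oxygen, and complex V makes ATP from the proton gradient that complexes I, III and IV build up. In the liver this chain supplies the ATP for glucose, urea and lipid synthesis and takes up the electrons released by fatty acid oxidation. A few subunits of complex IV exist as tissue isoforms, with one form in liver and most other tissues and another in striated muscle, testis or lung.

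Livers came from lean wild-type C57BL/6 mice fed ad libitum, 1 week after injection of 0.1 OD of adenovirus and after 6 hours without food. Group shDnajb9 received a virus for knockdown of Dnajb9, which encodes a co-chaperone of the endoplasmic reticulum, and its control was lacZ1, both at 3 months of age. Group shRictor received a virus for knockdown of Rictor, which encodes a subunit of mTOR complex 2, and its control was lacZ2, both at 4 months of age. Each group had 2 libraries of total RNA depleted of ribosomal RNA. The labels do not say whether the lacZ virus carried lacZ or a hairpin against it, nor that each library is a different animal, so p-values measure the spread between these libraries only. Whole liver holds several cell types, so fewer cells of a type and less RNA per cell cannot be told apart.

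Gene counts per library ranged from 6426164 to 11383532. The share of HTSeq counts without a unique alignment was 41.3% and 41.97% in shDnajb9 against 22.88% and 24.88% in lacZ1, and 32.69% and 26.72% in shRictor against 24.59% and 24.23% in lacZ2. Levels are given as CPM, counts scaled to a common library size. Dnajb9 stood at 22.0 and 20.3 CPM in shDnajb9 against 30.6 and 38.0 CPM in lacZ1 (log2 fold change -0.70, adjusted p = 0.056, edgeR). Rictor stood at 40.1 and 41.9 CPM in shRictor against 52.3 and 65.1 CPM in lacZ2 (-0.52, adjusted p = 0.231, edgeR). Both targets thus lay below the control in both libraries and neither passed the test, so a knockdown is named here by the virus delivered. Rictor was also lower in both shDnajb9 libraries, at 33.3 and 63.3 CPM in shDnajb9 against 65.4 and 68.7 CPM in lacZ1 (-0.46, adjusted p = 0.239, edgeR), so its lower level was not seen in shRictor alone. The tissue label was checked on its markers: the 8 hepatocyte markers summed to 20170 CPM or more in every library. That sum was 78370 and 62660 CPM in shDnajb9 against 38290 and 51490 CPM in lacZ1. In shRictor it was 63770 and 68670 CPM against 20170 and 40520 CPM in lacZ2.

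Of the 86 members, 80 had enough counts to be tested. The 6 others were Ndufs5, Cox7b2 and Cox8c, listed at 0 in all 8 libraries, and Cox4i2, Cox6a2 and Cox8b, with at most 5 counts in any library. Ndufs5 encodes an intermembrane-space subunit of complex I that every cell uses, so its 0 is not read as absence. Of its sequence 31.1% recurs elsewhere, and the cause of the 0 was not tested. Per kilobase of transcript, the highest members over all 8 libraries were Cox6a1 with 1110 CPM per kilobase, Atp5b with 842, Cox8a with 713, Cox4i1 with 672 and Uqcr11 with 627. Of these 5, 4 belong to complexes III and IV, which pass electrons on to oxygen, and Atp5b is the catalytic beta subunit of ATP synthase.

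In shDnajb9, 47 of the 80 members rose and 1, Cox6b2, fell against lacZ1 (edgeR quasi-likelihood test, adjusted p under 0.05 over all 13767 genes tested). Over all genes tested, 11.6% were called higher and 12.6% lower. The median log2 fold change was 1.03 over the members and -0.05 over all genes tested, and 77 of the 80 members had a positive value. Both shDnajb9 libraries lay above both lacZ1 libraries for 73 members and below them for 1, where 32.4% and 35.1% of all genes did so. Of the summed counts, the members took 1.85% and 1.43% in shDnajb9 against 1.10% and 1.31% in lacZ1. In shRictor their share was 1.47% and 1.18%, against 1.28% and 1.21% in lacZ2, with overlap. With 2 libraries a group an exact permutation test cannot go below p = 0.333. Each call therefore rests on a spread that the fit pools over the 4 groups and shares across genes.

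**Figure D1:**
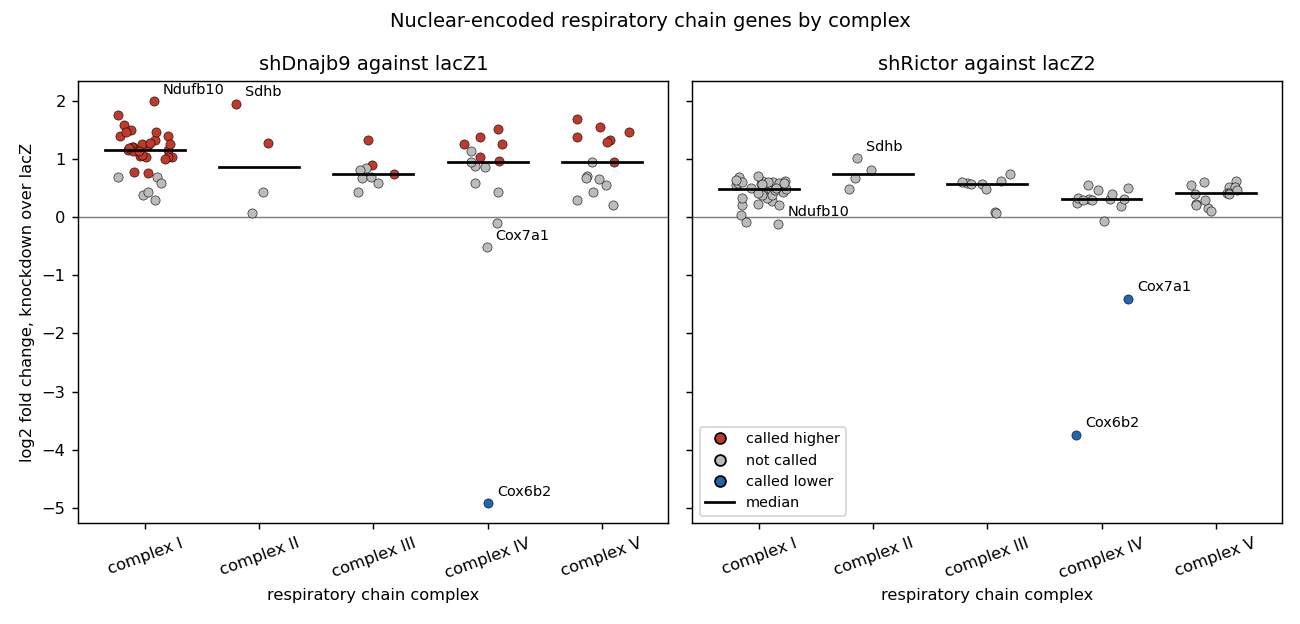
Log2 fold change of each tested member, one point per gene, by complex, for shDnajb9 against lacZ1 (left) and shRictor against lacZ2 (right); red points were called higher, blue lower and grey not called at adjusted p under 0.05, and the bar is the median. In shDnajb9 28 of 34 complex I genes are red, in shRictor none is, and Cox6b2 is the lowest point in both panels.

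Of the 34 tested genes of complex I, 28 rose in shDnajb9 and none fell, with a median of 1.15. Of the 7 core genes, which are conserved from bacteria and hold the redox centres, 4 rose, and the median was 0.77. Of the 27 accessory genes, which surround the core, 24 rose, and the median was 1.21. Those not called included the core genes Ndufv1 (0.30) and Ndufs1 (0.43) and the accessory genes Ndufa9 (0.38), Ndufa8 (0.68) and Ndufa10 (0.69).

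Ndufb10, an accessory subunit of the membrane arm, had the highest fold change of all members. It stood at 300.35 and 231 CPM in shDnajb9 against 61.4 and 71.8 CPM in lacZ1. The groups did not overlap, and the log2 fold change was 1.99 (SE 0.285, adjusted p = 0.000519, edgeR). It stood at 107 and 84.5 CPM in shRictor against 85.6 and 121 CPM in lacZ2, and these groups overlapped. Ndufa3, another membrane-arm subunit, stood at 169 and 104 CPM in shDnajb9 against 43.0 and 48.3 CPM in lacZ1 (1.58, SE 0.310, adjusted p = 0.00373). Ndufb3, of the same arm, stood at 72.3 and 52.7 CPM in shDnajb9 against 22.7 and 28.8 CPM in lacZ1 (1.28, SE 0.246, adjusted p = 0.00331). For all 3 genes the lower shDnajb9 library lay above the higher lacZ1 library.

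The start regions of both genes with the firmest complex I calls, which kept their call under every alternative run, are shown as RefSeq gives them for GRCm38.p6, from 250 bases before to 50 bases after the annotated start and on the gene's strand. Ndufb10 lies on the minus strand (chr17:24724374-24724673) and Ndufa3 on the plus strand (chr7:3617123-3617422). Capitals mark AAGATGGC, letters of the site known for YY1, a factor that acts on many mitochondrial genes.
Ndufb10: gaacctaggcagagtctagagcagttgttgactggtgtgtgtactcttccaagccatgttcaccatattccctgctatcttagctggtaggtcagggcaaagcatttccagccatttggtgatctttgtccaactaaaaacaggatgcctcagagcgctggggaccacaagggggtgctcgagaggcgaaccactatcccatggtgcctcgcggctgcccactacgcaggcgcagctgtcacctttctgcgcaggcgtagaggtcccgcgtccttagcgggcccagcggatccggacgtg
Ndufa3: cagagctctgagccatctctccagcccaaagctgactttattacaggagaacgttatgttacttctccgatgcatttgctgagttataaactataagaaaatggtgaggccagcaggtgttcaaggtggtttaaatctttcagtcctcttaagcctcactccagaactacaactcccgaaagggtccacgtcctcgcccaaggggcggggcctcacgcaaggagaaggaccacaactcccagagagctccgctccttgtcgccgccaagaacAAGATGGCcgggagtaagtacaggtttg
The Ndufb10 window held none of the 4 motifs searched. RefSeq windows were found for 68 members. On either strand, AAGATGGC occurred in 13.2% of them, in 2.88% of all 27025 windows and in 3.22% of the 17492 windows of protein-coding genes. The NRF1 palindrome, spelled GCGCA, any base and GCGC, occurred in 23.5%, 4.78% and 6.6% of these 3 sets of windows. The ETS core CCGGAAG occurred in 22.1%, 9.12% and 11.9%, and the ERRA site AAGGTCA in 11.8%, 4.66% and 4.08%. Among members called higher in shDnajb9, 19% of 42 windows held AAGATGGC and 16.7% the NRF1 palindrome. Among tested members that were not called, 1 of 22 windows (4.55%) held AAGATGGC and 36.4% the NRF1 palindrome. These are letter matches and say nothing of binding.

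Complex II, which is also an enzyme of the citric acid cycle, was split in shDnajb9. Sdhb, its iron-sulphur subunit, stood at 1077 and 499.8 CPM in shDnajb9 against 171 and 237 CPM in lacZ1, with a log2 fold change of 1.95 (adjusted p = 0.00431, edgeR). Sdhc, a membrane anchor, stood at 317 and 175 CPM in shDnajb9 against 85.8 and 118 CPM in lacZ1 (1.27, SE 0.312, adjusted p = 0.0123). Neither gene overlapped between the groups, although the shDnajb9 libraries of Sdhb differed from each other more than the lacZ1 libraries did. Sdha, the flavoprotein that oxidises succinate, stood at 291 and 349 CPM in shDnajb9 against 307 and 299 CPM in lacZ1, and these overlapped (0.08, adjusted p = 0.891). Sdhd, the other anchor, was at 0.43 (adjusted p = 0.245). Leaving out lacZ1 replicate 1 ended the Sdhb call (adjusted p = 0.0699). The Sdhb start region (GRCm38.p6, chr4:140961021-140961320, plus strand) is shown because Sdhb had the second highest fold change among the members, and its capitals mark the ETS core CCGGAAG.
Sdhb: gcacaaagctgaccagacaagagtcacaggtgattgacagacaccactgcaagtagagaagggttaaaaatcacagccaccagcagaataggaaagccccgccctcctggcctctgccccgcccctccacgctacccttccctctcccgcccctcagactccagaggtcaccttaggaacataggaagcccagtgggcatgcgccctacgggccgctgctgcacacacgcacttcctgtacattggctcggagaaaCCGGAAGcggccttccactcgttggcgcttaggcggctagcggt

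In complex III 3 of 9 genes rose in shDnajb9, all of them small subunits, and none fell; the median was 0.74. Uqcr11 stood at 576 and 322 CPM in shDnajb9 against 151 and 206 CPM in lacZ1 (1.33, SE 0.350, adjusted p = 0.0170, edgeR). Uqcrb stood at 65.3 and 50.3 CPM in shDnajb9 against 25.3 and 36.8 CPM in lacZ1 (0.90, adjusted p = 0.0352). Uqcrh, the hinge protein that meets cytochrome c1, stood at 35.2 and 44.3 CPM in shDnajb9 against 25.3 and 22.4 CPM in lacZ1 (0.74, adjusted p = 0.0406). None of the 3 overlapped between the groups. All 3 calls were lost when libraries were scaled by total count only. Those of Uqcrb and Uqcrh were also lost with a term for the replicate number, and after a correction for length and GC content. After that correction the median was 0.39 over complex III and 0.08 over all genes tested. The redox subunits did not pass: Cyc1, cytochrome c1, was at 0.84 (adjusted p = 0.053) and Uqcrfs1, the Rieske iron-sulphur protein, at 0.69 (adjusted p = 0.0861). Uqcrc1 (0.82), Uqcrc2 (0.67), Uqcrq (0.59) and Uqcr10 (0.43) were not called either. Cycs, the mobile carrier to complex IV, stood at 165 and 128 CPM in shDnajb9 against 92.1 and 108 CPM in lacZ1 without overlap, and its value of 0.54 did not pass (adjusted p = 0.147).

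In complex IV 6 of the 12 widely expressed genes rose in shDnajb9 and none fell, with a median of 1.00. Cox7b, a small membrane subunit, stood at 88.0 and 73.8 CPM in shDnajb9 against 26.5 and 41.5 CPM in lacZ1 (1.25, SE 0.284, adjusted p = 0.00808, edgeR). Cox6c stood at 183 and 135 CPM in shDnajb9 against 59.4 and 72.9 CPM in lacZ1 (1.26, adjusted p = 0.0127). Ndufa4, first assigned to complex I by name and now counted with complex IV, stood at 145 and 88.98 CPM in shDnajb9 against 32.9 and 56.7 CPM in lacZ1 (1.38, adjusted p = 0.0178). None of these groups overlapped. Cox7c, Cox7a2 and Cox7a2l also rose, by 1.51, 1.03 and 0.97. Cox6a1, the highest member per kilobase of transcript, stood at 1333 and 585 CPM in shDnajb9 against 382 and 493 CPM in lacZ1, and its value of 1.13 did not pass (adjusted p = 0.0612). Cox4i1 stood at 971 and 523 CPM in shDnajb9 against 339.7 and 471 CPM in lacZ1 without overlap, and its value of 0.88 was not called. Cox8a stood at 569 and 353 CPM in shDnajb9 against 291 and 389.96 CPM in lacZ1, with overlap (0.44, not called). Cox6b1 (0.95), Cox5b (0.86) and Cox5a (0.59) were not called either. The Cox8a value was -0.02 when scaled by total count only.

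In complex V 7 of 15 genes rose in shDnajb9 and none fell, with a median of 0.94. Of the 5 genes of the catalytic F1 part only Atp5e, the epsilon subunit, rose: 205 and 98.9 CPM in shDnajb9 against 37.6 and 56.2 CPM in lacZ1 (1.70, SE 0.370, adjusted p = 0.00702, edgeR). The abundant F1 subunits Atp5a1 (alpha) and Atp5b (beta) were at 0.43 (adjusted p = 0.415) and 0.55 (adjusted p = 0.325). Atp5b stood at 2487 and 1601 CPM in shDnajb9 against 1243.5 and 1558 CPM in lacZ1, the lower shDnajb9 library lying just above the higher lacZ1 library. Among the 10 other genes, of the membrane part and the stalk, 6 rose. Atp5l, subunit g of the membrane part, stood at 27.4 and 24.3 CPM in shDnajb9 against 11.9 and 7.86 CPM in lacZ1 (1.38, SE 0.268, adjusted p = 0.00359). Atp5g1, which encodes the ring subunit c, stood at 546 and 280.4 CPM in shDnajb9 against 132 and 168 CPM in lacZ1, at 1.46, and Atp5j2, subunit f, was at 1.55 (adjusted p = 0.0127 each). Atp5g2 and Atp5g3, which encode the same mature subunit c as Atp5g1, were at 0.67 (adjusted p = 0.0863) and 0.22 (adjusted p = 0.516). Atp5h, Atp5j and Atp5k also rose, by 1.33, 0.94 and 1.29.

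Atp5sl, now also named Dmac2 and known in human cells as an assembly factor of the complex I membrane arm, was the one member that rose in both knockdowns. It stood at 71.8 and 57.3 CPM in shDnajb9 against 24.7 and 23.6 CPM in lacZ1 libraries, with 63.2 and 64.8 CPM in shRictor against 21.1 and 26.045 CPM in lacZ2. Neither pair of groups overlapped. The log2 fold changes were 1.41 (SE 0.232, adjusted p = 0.00128, edgeR) and 1.44 (SE 0.231, adjusted p = 0.00114). Both calls held under every alternative run, the values lying between 0.97 and 1.57 in shDnajb9 and between 1.04 and 1.61 in shRictor. Over all genes tested 4.16% were called higher in both knockdowns. Atp5s was at 0.99 (adjusted p = 0.0636) in shDnajb9 and -0.25 (adjusted p = 0.700) in shRictor.

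**Figure D2:**
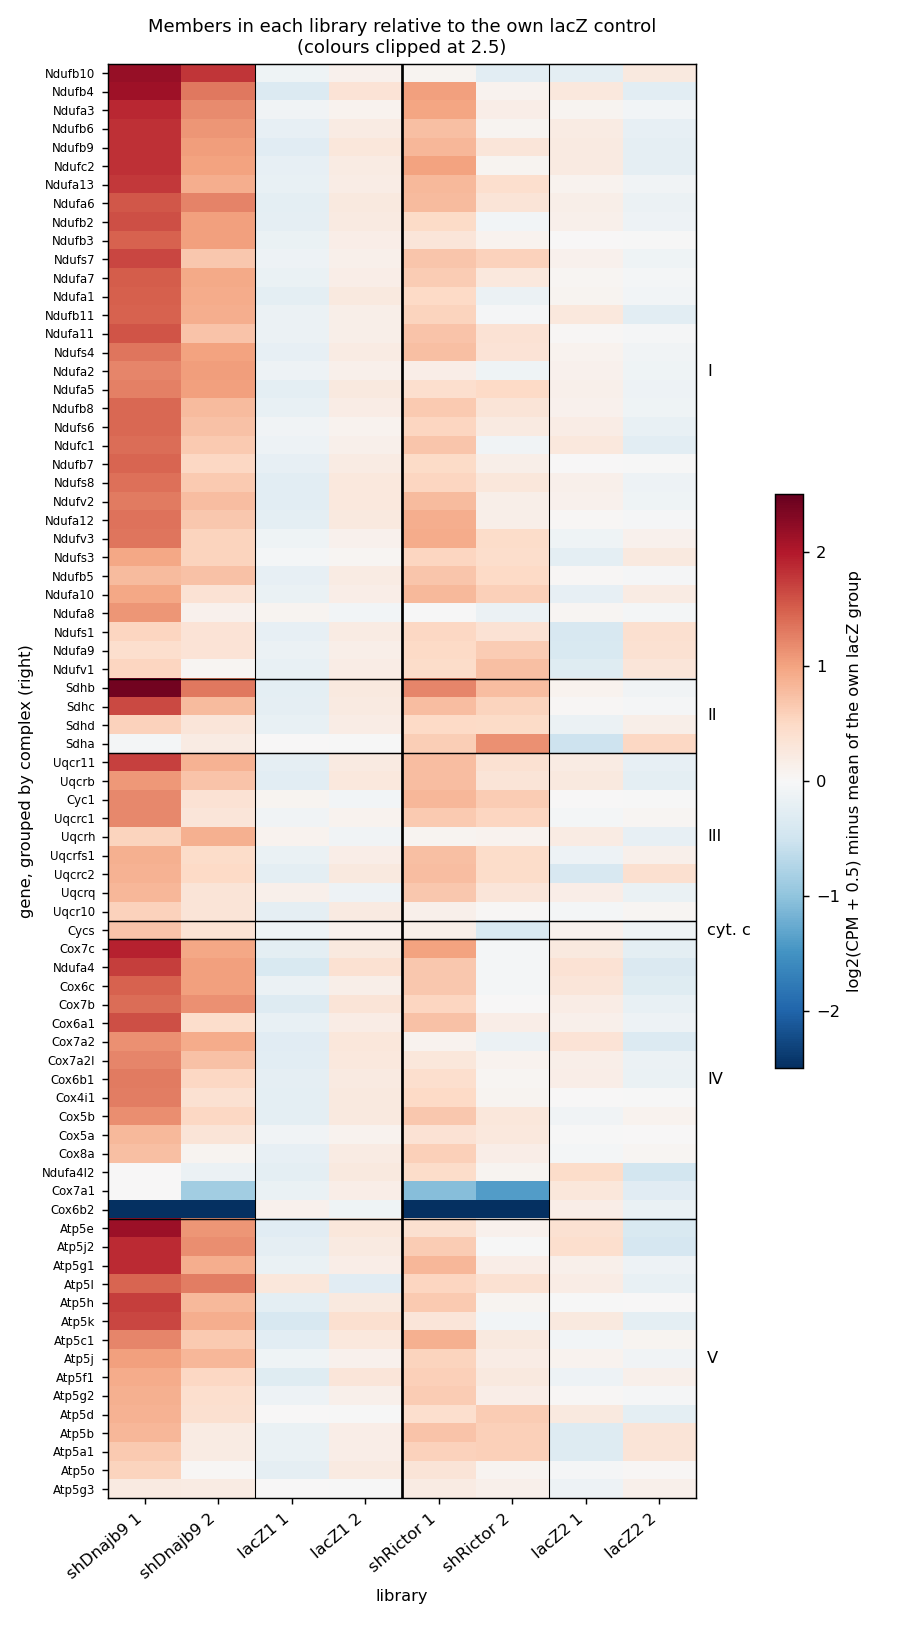
Heat map of the tested subunit genes, all but 1, and Cycs, one row per gene and one column per library, coloured by log2(CPM + 0.5) minus the mean of the own lacZ group, with colours clipped at 2.5. Most rows are red in both shDnajb9 columns and paler in shRictor, shDnajb9 replicate 1 is the reddest column, and Cox6b2 is blue in all 4 knockdown columns.

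The count in shDnajb9 leaned on single libraries. The members summed to 24843 CPM in shDnajb9 replicate 1 and 15684 CPM in replicate 2, against 9560 and 12193 CPM in lacZ1. Without lacZ1 replicate 1, the median log2 fold change was 0.82 over the members and -0.03 over all genes tested. Without shDnajb9 replicate 1, these medians were 0.71 and -0.05. Fewer genes were called in both of these fits, among the members and over all genes tested. When scaled by total count only, the median of the members was 0.58 and that of all genes -0.46, and 18 members were called higher; 610 of 3959 calls over all genes were then higher, against 1597 of 3325 as reported.

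Transcript length moved with this comparison. The members under 1000 bases had a median log2 fold change of 1.18 in shDnajb9, and those of 1000 bases or more 0.83. Over all genes tested the median was 0.57 for the shorter and -0.07 for the longer genes, so the members lay above all genes tested in both length classes. In shRictor the medians of the members were 0.33 and 0.54 and those of all genes -0.06 and -0.02. After a correction of each library for length and GC content, 43 members were called higher in shDnajb9 with a median of 0.69. In shRictor 15 were, with a median of 0.55. Calls over all 13767 genes tested rose as well. In shDnajb9 2467 genes were then called higher, against 1597 as reported, and in shRictor 1870, against 1006. The part of length in the results was otherwise not tested.

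**Figure D3:**
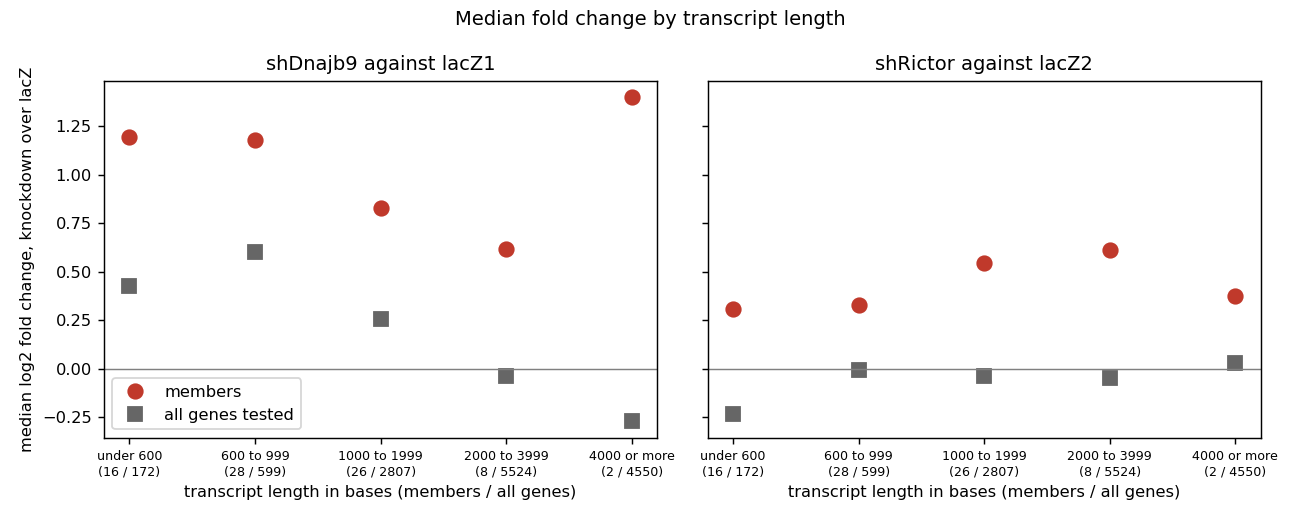
Median log2 fold change by transcript length class for the members (red circles) and for all genes tested (grey squares), in shDnajb9 against lacZ1 (left) and shRictor against lacZ2 (right), with the number of members and of all genes under each class. The members lie above all genes in each class. In shDnajb9 the median of all genes is lower in each longer class from the second class on. The last class holds 2 members, Ndufb2 and Atp5g1. Length is that of the longest annotated transcript, which need not be the one expressed in liver.

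Counts of some members can lose reads that have no unique alignment, and can hold reads of other genes. At least 20% of the 50-base stretches recurred elsewhere in 11 members, among them Atp5l (68.5%), Atp5h (47.9%), Uqcrb (43.2%) and Ndufb4 (37.0%), and 7 of the 10 tested were called higher in shDnajb9. These calls are uncertain as to the gene, and with all such genes left out 40 of 70 members were called higher. Over all genes then tested 1529 were called higher, against 1597 as reported. The strand setting of the counting is not given in the sources used here, and exons of Ndufb6 and Ndufa13 overlap those of Smim27 and Tssk6 on the other strand over 39.0% and 30.0% of their length. No exon of Cox6b2 overlapped another gene.

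In shRictor against lacZ2, 1 member, Atp5sl, rose and 2, Cox6b2 and Cox7a1, fell, while 77 were not called (edgeR). Over all genes tested, 7.31% were called higher and 10.9% lower. At an unadjusted p under 0.05, 10 of the 80 members were higher and 2 lower, beside 31.7% of all genes tested in either direction, a share above that of the members; DESeq2 called 4 members and limma-voom 3. The median was 0.46 over the members and -0.02 over all genes tested, and 73 members had a positive value. Both shRictor libraries lay above both lacZ2 libraries for 51 members and below for 2, where 28.8% and 31.6% of all genes did so. When scaled by total count only, the members' median was 0.06 and that of all genes -0.42.

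By complex, no widely expressed subunit gene passed in shRictor, and the medians were 0.49 for complex I, 0.74 for II, 0.57 for III, 0.31 for the widely expressed genes of IV and 0.42 for V. Sdhb stood at 423 and 310 CPM in shRictor against 194 and 171 CPM in lacZ2 without overlap, at a log2 fold change of 1.01 (adjusted p = 0.0870, edgeR). Sdha stood at 347 and 502 CPM in shRictor against 158 and 324 CPM in lacZ2, also without overlap (0.82, adjusted p = 0.140). Ndufb5, of the complex I membrane arm, stood at 68.5 and 59.6 CPM in shRictor against 42.8 and 41.4 CPM in lacZ2 (0.61, adjusted p = 0.0856). Cyc1 stood at 194 and 169 CPM in shRictor against 110.2 and 108 CPM in lacZ2 (0.73, adjusted p = 0.103). The lacZ2 libraries of Sdha differed by more than the gap between the groups.

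Cox6b2 showed the largest change of any member in both knockdowns. It encodes an isoform of complex IV subunit 6B that is known from testis, and Cox6b1 encodes the form of most tissues. It had 3 and 4 counts in shDnajb9 against 195 and 125 in lacZ1, and 19 and 14 counts in shRictor against 229 and 252 in lacZ2. In CPM this was 0.628 and 0.456 in shDnajb9 against 17.3 and 14.9 in lacZ1, and 2.23 and 1.37 in shRictor against 26.6 and 21.3 in lacZ2. No knockdown library came near a lacZ library. Cox6b2 fell by 4.92 on the log2 scale in shDnajb9 (SE 0.411, adjusted p = 3.8e-05, edgeR) and fell by 3.74 in shRictor (SE 0.317, adjusted p = 4.8e-05). Over all genes tested 6.85% were called lower in both knockdowns.

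The share of Cox6b2 in the counts of both isoforms does not depend on the scaling of the libraries. It was 0.125% (95% Wilson interval 0.0425% to 0.367%) and 0.157% (0.0610% to 0.402%) in shDnajb9 against 9.06% (7.92% to 10.3%) and 5.91% (4.98% to 6.99%) in lacZ1. In shRictor it was 0.848% (0.543% to 1.32%) and 0.673% (0.402% to 1.13%) against 10.8% (9.56% to 12.2%) and 10.9% (9.71% to 12.3%) in lacZ2. The intervals, which cover counting error only, did not meet between a knockdown and its control. Cox6b1 stood at 502 and 291 CPM in shDnajb9 against 173 and 237 CPM in lacZ1. Those groups did not overlap, in the opposite direction to Cox6b2, and the Cox6b1 value of 0.95 did not pass (adjusted p = 0.0556). Defining genes of male germ cells were nearly absent: the 8 markers summed to at most 0.471 CPM in any library, and 4 to 8 of them were at 0.

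Both start regions lie on chromosome 7 on the minus strand of GRCm38.p6, Cox6b2 at chr7:4753045-4753344 and Cox6b1 at chr7:30626065-30626364. They are shown side by side as RefSeq gives them because these isoforms differed most; capitals in Cox6b1 mark the ETS core on the other strand, and the Cox6b2 window held none of the motifs searched.
Cox6b2: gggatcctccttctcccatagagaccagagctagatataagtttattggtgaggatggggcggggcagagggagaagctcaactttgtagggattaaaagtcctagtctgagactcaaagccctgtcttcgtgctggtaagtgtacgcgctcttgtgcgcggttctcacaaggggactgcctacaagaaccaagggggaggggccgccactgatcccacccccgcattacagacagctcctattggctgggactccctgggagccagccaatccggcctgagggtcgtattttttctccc
Cox6b1: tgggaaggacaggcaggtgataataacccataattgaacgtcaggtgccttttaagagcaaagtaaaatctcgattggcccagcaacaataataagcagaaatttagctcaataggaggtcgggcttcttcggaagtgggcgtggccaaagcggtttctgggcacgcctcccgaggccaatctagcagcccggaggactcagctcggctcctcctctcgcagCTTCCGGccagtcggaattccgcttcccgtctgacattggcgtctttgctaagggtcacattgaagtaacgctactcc

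Cox7a1, the form of subunit 7A in heart and skeletal muscle, fell in shRictor. It stood at 2.71 and 2.05 CPM there against 7.67 and 4.99 CPM in lacZ2, without overlap (log2 fold change -1.40, SE 0.399, adjusted p = 0.0279, edgeR). The call was lost without lacZ2 replicate 1 and without either shRictor library, the adjusted p reaching 0.187 over the alternatives. It stood at 3.56 and 1.71 CPM in shDnajb9 against 3.10 and 4.05 CPM in lacZ1, and the groups overlapped (-0.51, adjusted p = 0.401; 0.00 without shDnajb9 replicate 2). Its widely expressed partner Cox7a2 stood at 50.1 and 43.3 CPM in shDnajb9 against 18.3 and 27.5 CPM in lacZ1. As a share of its counts with Cox7a2, Cox7a1 took 6.64% of counts in shDnajb9 replicate 1 and 3.80% in replicate 2, against 14.5% and 12.8% in lacZ1. In shRictor the share was 8.52% and 7.72% against 18.1% and 18.9% in lacZ2. In both experiments the knockdown libraries had the lower shares. The 7 striated muscle markers summed to 0.209 and 0.114 CPM in shDnajb9 against 1.68 and 1.43 CPM in lacZ1 libraries, and to 0.235 and 0 CPM in shRictor against 1.16 and 1.44 CPM in lacZ2. These sums rested on 1 and 1 counts in shDnajb9 against 19 and 12 in lacZ1. In shRictor they rested on 2 and 0 counts against 10 and 17 in lacZ2. The marker sums were lower in both knockdowns, while the CPM of Cox7a1 separated from the control in shRictor only. The part of muscle RNA in the Cox7a1 values was not tested.

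**Figure D4:**
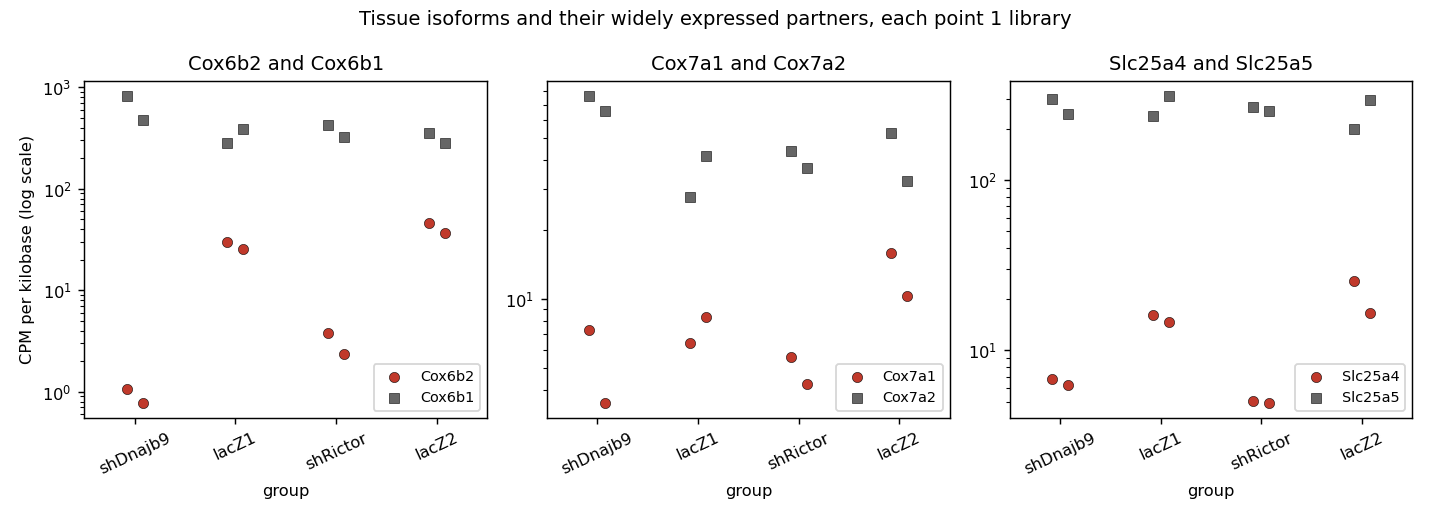
CPM per kilobase of transcript on a log scale for 3 tissue isoforms (red circles) and their widely expressed partners (grey squares), one point per library, in shDnajb9, lacZ1, shRictor and lacZ2. Cox6b2 and Slc25a4 lie lower in both knockdowns than in the lacZ groups, Cox7a1 does so in shRictor, and the partners show no such drop.

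The other tissue isoforms were at or near 0 in all groups. Ndufa4l2, a hypoxia-responsive relative of Ndufa4, stood at 1.47 and 1.25 CPM in shDnajb9 against 1.15 and 1.79 CPM in lacZ1 libraries, with 2.35 and 1.66 CPM in shRictor against 2.32 and 1.01 CPM in lacZ2. Its groups overlapped in both experiments. Cox4i2, the lung form, had 2 and 1 counts in shDnajb9 against 2 and 3 in lacZ1, and 2 and 0 counts in shRictor against 2 and 1 in lacZ2. Cox6a2, the heart and muscle form, had at most 5 counts and Cox8b at most 3. At 0 counts a library of this depth allows up to 3 counts.

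Set against each other, the knockdown effects on the members could not be told apart after adjustment. In the test of the shRictor effect minus the shDnajb9 effect, no member was called, and 1 gene of all tested was (0.00726%). At an unadjusted p under 0.05, 15 of the 80 members were lower in this difference and none higher, beside 10.9% of all genes in either direction; DESeq2 called 1 and limma-voom 0. The median difference over the members was -0.64, beside -0.01 over all genes tested. Short genes in general leaned the same way. Under 1000 bases the median was -0.77 for the members and -0.63 for all 771 genes tested. At 1000 bases or more these medians were -0.29 and 0.01. Correcting each library for length and GC content gave medians of -0.22 for the members and -0.04 for all genes tested. Ndufb10 had the largest difference of any member, at -2.10 (SE 0.393, unadjusted p = 0.000129, adjusted p = 0.163, edgeR). Its log2 fold change was -0.11 in shRictor and 1.99 in shDnajb9. Of the members, 46 were called higher in shDnajb9 alone, which is therefore not shown to be a difference between the knockdowns.

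Between the controls, lacZ2 against lacZ1, no member was called and no gene of all tested (0%). At an unadjusted p under 0.05, 2 members, Ndufb10 (0.64) and Cox6b2 (0.57), were higher in lacZ2, beside 1.23% of all genes in either direction; DESeq2 and limma-voom called 0. The median over the members was 0.00. Both lacZ2 libraries lay above both lacZ1 libraries for 6 members and below for 2, where 11.7% and 9.97% of all genes did so. Age and experiment cannot be told apart here.

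The genes around the chain were read from lists. The subunits encoded by mitochondrial DNA were not analysed here. Of 4 tested subunit or regulator genes that the naming rule misses, Usmg5 and 2010107E04Rik, small subunits of the ATP synthase membrane part, rose in shDnajb9 by 1.56 (adjusted p = 0.00882, edgeR) and 1.68 (adjusted p = 0.00439). Atpif1, the inhibitor of ATP synthase, fell in shRictor: 47.4 and 42.6 CPM in shRictor against 191 and 121 CPM in lacZ2 (-1.79, adjusted p = 0.00448). It stood at 132 and 64.3 CPM in shDnajb9 against 125 and 173 CPM in lacZ1, with overlap (-0.61, adjusted p = 0.208).

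Of 48 tested assembly factors 13 rose in shDnajb9 and none fell, with a median of 0.55. Ndufaf6, a complex I assembly factor, stood at 49.6 and 35.8 CPM in shDnajb9 against 10.01 and 11.8 CPM in lacZ1 (1.97, adjusted p = 0.00048, edgeR). The complex I factor 1810043H04Rik (Ndufaf8) rose by 1.63 (adjusted p = 0.00291) and Timmdc1 by 1.46 (adjusted p = 0.0068). For complex IV, Coa6 rose by 1.62 (adjusted p = 0.00293), Surf1 by 1.16 (adjusted p = 0.0091) and Cox11, a copper chaperone, by 1.21 (adjusted p = 0.0127). For complexes II and III, Sdhaf1 rose by 1.04 (adjusted p = 0.0373) and Bcs1l by 0.85 (adjusted p = 0.0261). In shRictor 2 of the 48 rose, both of complex I: Ecsit by 1.07 (adjusted p = 0.0069) and Ndufaf4 by 0.80 (adjusted p = 0.0482). Both also rose in shDnajb9, by 1.02 and 0.79.

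Of the citric acid cycle list, none of 14 genes was called in either knockdown, and its median was 0.10 in shDnajb9 and 0.36 in shRictor. Of 18 genes of ubiquinone synthesis and other electron entry, 5 rose in shDnajb9 and 2 in shRictor. Adck3 (Coq8a), needed for ubiquinone synthesis, rose in both, by 1.31 (adjusted p = 0.00567, edgeR) and 1.42 (adjusted p = 0.00398). Coq10a and Etfb, an electron transfer flavoprotein, rose in shDnajb9 by 1.07 and 1.09 (adjusted p = 0.0178 each). Coq10b, which binds ubiquinone in the membrane, rose in shRictor by 1.10 (adjusted p = 0.0163).

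Among 14 regulators of mitochondrial biogenesis, Ppargc1a, the coactivator PGC-1 alpha, stood at 17.0 and 31.4 CPM in shDnajb9 against 10.98 and 13.1 CPM in lacZ1 (1.03, adjusted p = 0.0256, edgeR). It stood at 21.3 and 23.4 CPM in shRictor against 6.97 and 9.22 CPM in lacZ2 (1.45, adjusted p = 0.00547). Neither pair of groups overlapped. Its relative Pprc1 fell in shDnajb9 (-1.55, adjusted p = 0.0225), as did Polrmt, the mitochondrial RNA polymerase (-0.89, adjusted p = 0.0325). In shDnajb9 the factors Nrf1 (-0.16), Gabpa (0.10), Esrra (0.70) and Tfam (0.52) were not called. In shRictor Ppara, a receptor that drives fatty acid oxidation genes, rose by 1.15 (adjusted p = 0.0389, edgeR), while Nrf1 (-0.16), Gabpa (0.47), Esrra (0.23) and Tfam (-0.24) were not called.

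Among the carriers that serve complex V, Slc25a4, the ADP/ATP carrier of heart and muscle, fell in both knockdowns. It stood at 13.0 and 12.0 CPM in shDnajb9 against 30.9 and 28.2 CPM in lacZ1 (-1.25, adjusted p = 0.00515, edgeR), and at 9.65 and 9.48 CPM in shRictor against 49.0 and 31.96 CPM in lacZ2 (-2.08, adjusted p = 0.000293). Slc25a5, the widely expressed carrier, stood at 373 and 302 CPM in shDnajb9 against 294 and 384 CPM in lacZ1 libraries, with 333 and 314 CPM in shRictor against 246 and 367 CPM in lacZ2. Its groups overlapped in both experiments.

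Markers of several cell types moved with the knockdowns. Beside the hepatocyte sums given above, which were higher in both knockdowns, the 6 stellate cell and fibroblast markers summed to 240 and 299.6 CPM in shDnajb9 against 551 and 473 CPM in lacZ1 libraries, and to 288 and 249.8 CPM in shRictor against 468 and 456 CPM in lacZ2. The 7 Kupffer cell markers summed to 332 and 547 CPM in shDnajb9 against 631 and 662 CPM in lacZ1 libraries, and to 378 and 491 CPM in shRictor against 524 and 686 CPM in lacZ2. The 7 neutrophil markers summed to 1.05 and 1.03 CPM in shDnajb9 against 25.1 and 5.96 CPM in lacZ1 libraries, and to 1.76 and 4.79 CPM in shRictor against 14.2 and 3.97 CPM in lacZ2. The 5 cholangiocyte markers summed to 28.3 and 54.4 CPM in shDnajb9 against 88.1 and 95.7 CPM in lacZ1 libraries, and to 41.05 and 58.75 CPM in shRictor against 59.3 and 111 CPM in lacZ2. The 7 T and NK cell markers summed to 23.9 and 31.1 CPM in shDnajb9 against 43.75 and 37.05 CPM in lacZ1 libraries, and to 25.6 and 27.8 CPM in shRictor against 32.4 and 57.2 CPM in lacZ2. The sums of these 5 lists were lower in every knockdown library than in its controls, except that the neutrophil sums of shRictor and lacZ2 overlapped. The sums of the 5 sinusoidal endothelium and the 4 B cell markers overlapped in shDnajb9 with lacZ1, and the endothelial sums also in shRictor with lacZ2, where B cell markers summed to 5.88 and 5.47 CPM in shRictor against 7.79 and 7.53 CPM in lacZ2.

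The sums of 2 further lists were higher in the knockdowns, as the members were, and each rested on 1 gene. The 4 erythroid markers summed to 593 and 260 CPM in shDnajb9 against 42.25 and 49.8 CPM in lacZ1 libraries, and to 153.5 and 124 CPM in shRictor against 46.8 and 46.3 CPM in lacZ2. Like the members' sum, the erythroid sum was highest in shDnajb9 replicate 1. Nearly all of it was Alas2, which encodes the first enzyme of haem synthesis in red cell precursors and which was called higher in both knockdowns. The globin genes Hba-a1 and Hbb-bs were listed at 0 in all 8 libraries. The 5 brown fat markers summed to 152 and 127 CPM in shDnajb9 against 24.2 and 43.4 CPM in lacZ1 libraries, and to 83.4 and 79.3 CPM in shRictor against 25.7 and 43.7 CPM in lacZ2. There Elovl3, a fatty acid elongase that liver also expresses, made up most of the sum and was called higher in both knockdowns, while Ucp1, the defining gene, had at most 1 count in any library. The part of cell composition in the members' values was not tested.

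**Figure D5:**
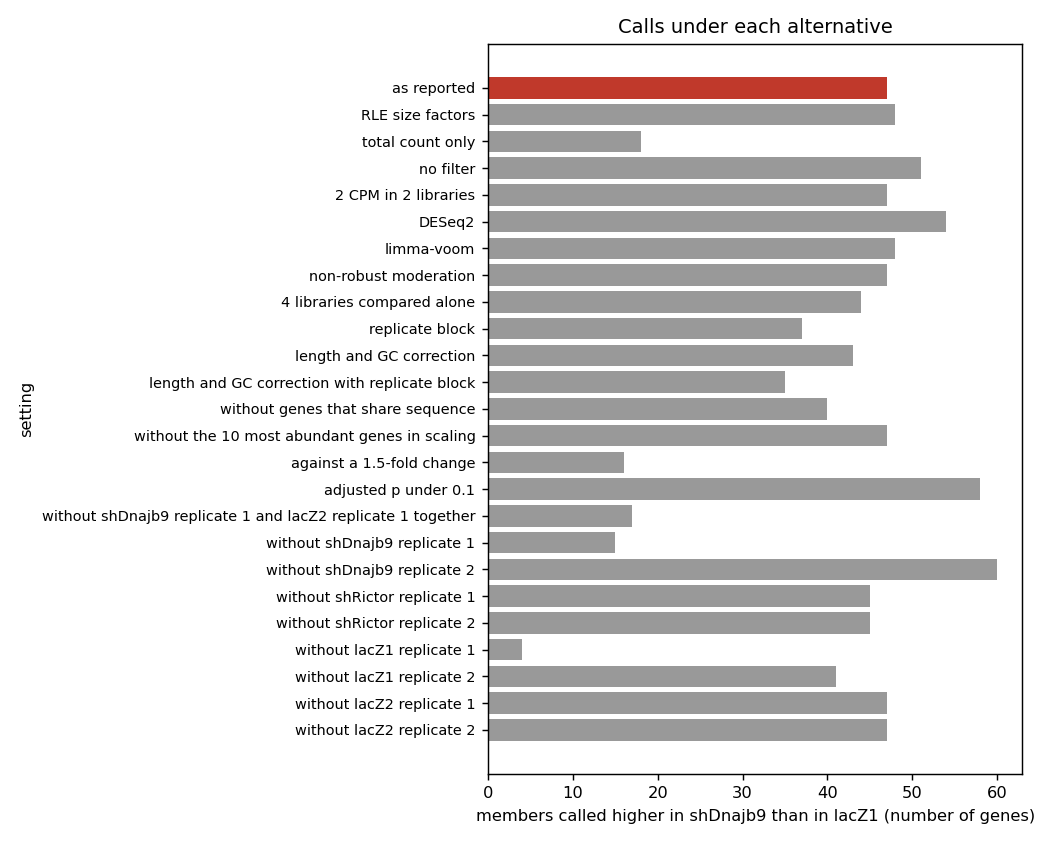
Number of members called higher in shDnajb9 than in lacZ1 under each alternative, one bar per setting, with the reported setting in red. The count is 47 as reported, 18 with total count only and 16 against a 1.5-fold change. Over all genes tested, which are not drawn, 1597, 610 and 543 were called higher under these settings. A bar with 1 library left out comes from a fit with 1 library in a group.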

How the data were processed

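Ribosomal RNA-depleted total RNA of mouse liver was sequenced in 8 libraries, 2 in each of 4 groups, which were taken from the sample titles. The authors deposited 1 table of raw read counts per gene symbol for each library, made with HTSeq after cutadapt on build mm10, per the submitters' processing notes. The aligner, the annotation, the strand setting and the tool versions are not given in the sources used here. Gene counts per library were 6426164 to 11383532, and this depth and the 2 libraries a group set the precision. Rows for reads that HTSeq left unassigned, from 48.4% to 63.7% of a table, stayed out of library sizes and tests.

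Counts were scaled by TMM, genes low in all groups were removed (filterByExpr, minimum count 10), and 13767 genes were fitted with edgeR 4.0.16 in R 4.3.3, with 1 mean per group over all 8 libraries and 4 residual degrees of freedom. The quasi-likelihood F test was run for each knockdown against its own lacZ group, for the shRictor effect minus the shDnajb9 effect, and for lacZ2 against lacZ1. P-values were adjusted by Benjamini and Hochberg over all genes tested, and a gene was called at adjusted p under 0.05. CPM are counts scaled to a common library size with TMM factors, as edgeR's cpm gives them. Alternatives were scaling by RLE or by total count, no filter or one of 2 CPM in 2 libraries, DESeq2 1.42.0, voom in limma 3.58.1, non-robust moderation, a fit of 4 libraries alone, a replicate block, a length and GC correction, leaving out genes that share sequence or the 10 most abundant genes, a 1.5-fold test, adjusted p under 0.1, and leaving out libraries. The fit was tested on simulated counts in which some genes were changed in shDnajb9. It recovered 90.5% of 4-fold, 20.6% of 2-fold and 1.41% of 1.5-fold changes, with 9 false calls and 13481 genes tested. Changes of 2-fold or less were thus mostly missed in the simulation. It changed 200 genes, while 3325 genes were called in shDnajb9 against lacZ1, so its recovery rates need not hold for these data. A gene not called is still not shown to be unchanged.

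Length, GC content, position and shared 50-base stretches came from GENCODE M21 (GRCm38, the mm10 build). To that annotation 98.3% of entries and all 86 members matched. Length and GC content are those of a gene's longest annotated transcript, protein-coding where one exists. That transcript need not be the one expressed, which also bears on levels per kilobase. Start regions came from RefSeq (GRCm38.p6). Of the entries, 27 are named as calendar dates and could not be assigned. The genes to name were chosen by a rule, and those the results turn on are given by library: up to 3 called genes with the smallest p per complex and direction, the tissue isoforms and their partners, the 5 highest members, untested members, up to 3 called genes per pathway list and the regulators Ppargc1a, Nrf1, Gabpa, Esrra and Tfam. Other members are named where a count is accounted for, and Ndufb5, Sdha, Cyc1 and Cycs were added after their values were seen. The members and lists were chosen with earlier results of these data known. The values of 1 member and 1 marker gene are not reported here on their own; both stay in the counts, sums and medians.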

Additional observations from a re-analysis of the deposited data

Results flagged for a closer look

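One class of reads outside the gene counts was higher in the knockdown libraries than in their controls. Reads without a unique alignment accounted for 41.30% and 41.97% of all HTSeq counts in shDnajb9 against 22.88% and 24.88% in lacZ1. In shRictor their share was 32.69% and 26.72% against 24.59% and 24.23% in lacZ2. These reads were counted for no gene, so members that share sequence with other genes can lose reads to this class.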

How the results depend on the processing

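The count of members higher in shDnajb9 (47) was 18 with total count only, 16 against a 1.5-fold change and 17 without shDnajb9 replicate 1 and lacZ2 replicate 1 together. It ranged from 4 to 60 with 1 library left out. The count higher in shRictor (1) was 2 with no filter, 2 with DESeq2, 2 with the 4 libraries compared alone, 15 after the length and GC correction, 5 after that correction with the replicate block, 3 at adjusted p under 0.1, and 1 to 4 with 1 library left out. The count lower in shRictor (2) was 1 against a 1.5-fold change, 1 without shDnajb9 replicate 1 and lacZ2 replicate 1 together, and 1 to 2 with 1 library left out. The count lower in the difference (0) was 2 with no filter, 1 with DESeq2 and 0 to 1 with 1 library left out. After the length and GC correction, the genes called higher over all tested also rose in shRictor, from 1006 to 1870. They were 1483 after that correction with the replicate block and 1451 at adjusted p under 0.1. With no filter they were 1287, with DESeq2 1140 and with the 4 libraries compared alone 1071. In the difference, 395 of all genes were called in either direction with no filter and 43 with DESeq2, against 1 as reported. The cause of these shifts was not tested.

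Same-numbered libraries did not deviate together (correlation -0.30 for shDnajb9 with lacZ1 and -0.03 for shRictor with lacZ2), so the numbers are not read as pairs. With the replicate block 37 members were higher in shDnajb9, 1 was higher in shRictor and 2 were lower in shRictor. A crossed block, chosen after seeing the data, gave 59 higher in shDnajb9. Over all genes tested, 995 were called higher in shDnajb9 with the replicate block and 2119 with the crossed block, against 1597 as reported.

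Of 1869 values of single genes under an alternative, 1661 kept direction and call, 149 lost their call, 36 gained one and 23 changed sign, none of which was called. With total count only, Cox8a was at -0.017 and Gabpa at -0.33 in shDnajb9. In shRictor that scaling gave -0.12 for Ndufa4l2, -0.18 for Cox6b1, -0.11 for Ndufa4, -0.10 for Cox4i1, -0.12 for Cox7b, -0.0027 for Cox8a and -0.18 for Esrra. After the length and GC correction, without and with the block, Nrf1 was at 0.11 and 0.11 in shDnajb9, and Cox7a2 at 0.038 and 0.061 in shRictor. With 1 library left out, the values ranged from -1.04 to 0.0029 for Cox7a1 and from -0.43 to 0.22 for Ndufa4l2 in shDnajb9, and in shRictor from -0.21 to 0.96 for Ndufa4l2, from -0.36 to 0.32 for Cox7a2, from -0.0896 to 0.71 for Ndufa4 and from -0.34 to 0.18 for Ndufb10. Without shDnajb9 replicate 1 and lacZ2 replicate 1 together, Cox7a2 was at 0.32 in shRictor. Cox6b2 and Atp5sl in both knockdowns, and Ndufb10, Ndufa3 and Atp5l in shDnajb9, kept their call under every alternative run. Depth limits the low isoforms: genes that did not pass the count filter were not tested.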

Other observations

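Summed over its genes, complex I stood at 6913 and 4445 CPM in shDnajb9 against 2334 and 2998 CPM in lacZ1 libraries, with 4083 and 3231 CPM in shRictor against 2622 and 2624 CPM in lacZ2. Complex II stood at 1911 and 1212 CPM in shDnajb9 against 697 and 827 CPM in lacZ1 libraries, with 1144 and 1159 CPM in shRictor against 584 and 749 CPM in lacZ2. Complex III stood at 2488 and 1583 CPM in shDnajb9 against 1042 and 1244 CPM in lacZ1 libraries, with 1724 and 1464 CPM in shRictor against 1093 and 1109 CPM in lacZ2. For these 3 complexes each knockdown library lay above both of its control libraries in CPM.

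Complex IV stood at 5498 and 3085 CPM in shDnajb9 against 1875 and 2539 CPM in lacZ1 libraries, with 3432 and 2401 CPM in shRictor against 2381 and 2121 CPM in lacZ2. Complex V stood at 7791 and 5169 CPM in shDnajb9 against 3493 and 4450 CPM in lacZ1 libraries, with 5439 and 4764 CPM in shRictor against 3202 and 3958 CPM in lacZ2. In both experiments replicate 1 of the knockdown had the higher sum for complexes I, III, IV and V. As a share of all gene counts, which needs no scaling factor, fewer of these gaps were seen. In shDnajb9 the shares of complexes I to IV lay above lacZ1, while complex V took 0.579% and 0.472% in shDnajb9 against 0.403% and 0.477% in lacZ1, and these overlapped. In shRictor complex II alone lay above its control, at 0.105% and 0.104% in shRictor against 0.0747% and 0.0847% in lacZ2. Complex I took 0.375% and 0.2904% in shRictor against 0.335% and 0.2965% in lacZ2, and complex III 0.158% and 0.1315% in shRictor against 0.1398% and 0.125% in lacZ2. Those shares overlapped, as did those of complexes IV and V.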
